A study of Mus musculus with 16 samples.

Results

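One day of exposure to aggressor mice, followed by 1 day of rest, was compared with no exposure in whole mouse hearts. The comparison used 8 of the 16 arrays in the series: the 4 whose titles give 1 day of stress and 1 day of rest (T1R1) and the 4 titled as controls. Every probe that is not a control spot was taken, 55681 in all. All mice were C57BL/6, with no transgene named, and each array carried RNA of 1 heart. Exposed mice lived in a wire mesh box inside the cage of an aggressor and met it for short bouts of biting. Control mice sat in such boxes in a cage that held no aggressor. Descriptions of the control samples name 2 days of stress, so none is described as a control for 1 day. The treatment text common to all samples gives longer exposures than the group titles, and the titles were followed. Hearts after 2 days (T2R1) and 3 days (T3R1) of exposure, 4 arrays each and each with 1 day of rest, are quoted beside T1R1 where they help to place a value. They were compared with the same 4 controls, so their values are not independent of those of T1R1.

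Levels are log2 intensities on which 0 is the 75th percentile of each array, and a difference is T1R1 minus control on that scale, given ± its standard error (n = 4 arrays per group). A probe counts as measured where every array of some group, of the 4 groups in the series, read it well above background. This left 22763 features: 16551 named genes, 3038 long noncoding RNA regions and 3174 transcripts without a gene name. Heart muscle was evident from its markers: all 24 genes of the adult sarcomere list were measured, with list medians of 6.57 to 7.34 on control arrays and 7.03 to 7.40 on T1R1 arrays. Control and T3R1 arrays lay on 1 slide and scan, and T1R1 and T2R1 arrays on the other, so exposure and slide cannot be told apart in any T1R1 value below.

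Single arrays stood apart in ways their group does not share. Control replicate 1 was brighter, with a 75th percentile of 551 scanner units against 258 to 273 on the other controls. Its 7 measured lung and airway genes, of 15 listed, had a median of 3.73, against -2.71 to -2.23 on the other controls and -2.25 to -1.26 in T1R1. Its dividing-cell genes were also higher, with a median of 1.40 for 31 mitosis and replication genes against -1.69 to -1.12 on the other controls. The 24 measured collagen genes had a median of 1.96 on it and 0.90 on each of the other controls. On T1R1 replicate 1 the 6 measured thymus genes, of 15 listed, had a median of 1.16, against -0.98 to -0.83 on the other T1R1 arrays. T1R1 replicate 4 had the highest median of 15 liver genes, 1.4997, against -2.82 to -0.82 on the other T1R1 arrays. T1R1 replicate 3 was marked for review by the scanner software, and 46.5% of its spots were well above background, against 55.7% to 66.9% on the other 7 arrays. Values without these arrays are given beside results that they changed. The part that tissue makeup plays in the T1R1 differences was not tested.

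**Figure D1:**
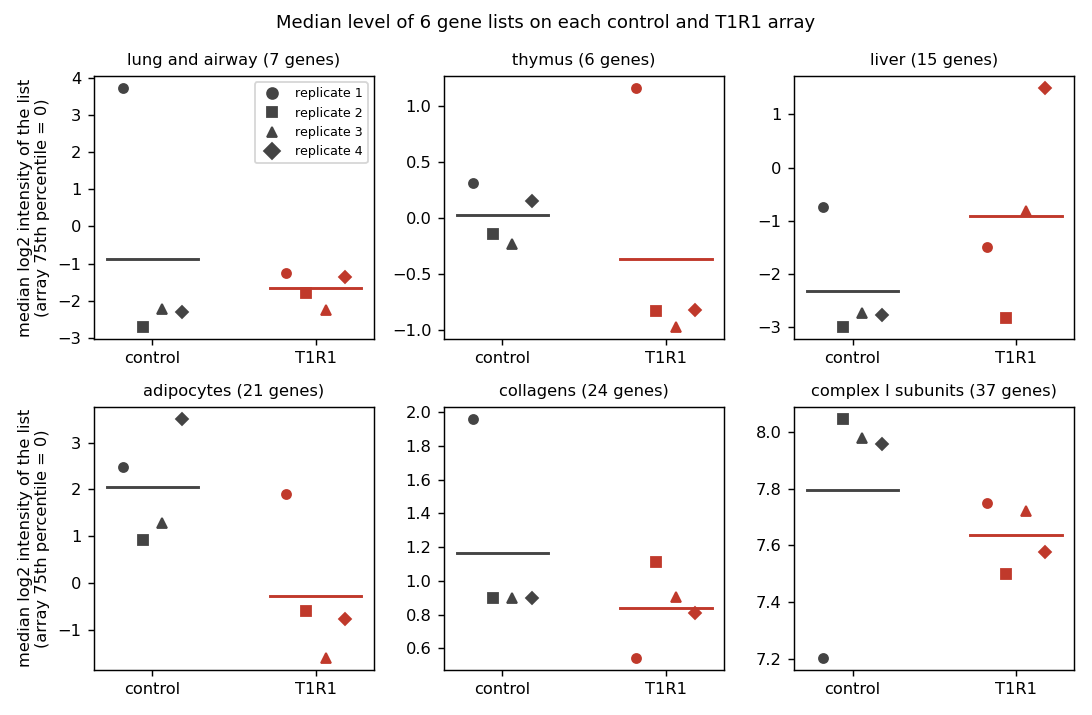
Median log2 intensity of 6 gene lists on each of the 4 control arrays (grey) and 4 T1R1 arrays (red); the vertical axis has 0 at the 75th percentile of the array, marker shape gives the replicate number and the horizontal line is the mean of 4 arrays. Control replicate 1 sits alone for lung, collagen and complex I genes, at 3.73, 1.96 and 7.20.

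Social defeat by a resident aggressor activates the sympathetic nerves and the adrenal cortex, whose catecholamines and glucocorticoids act on the heart directly. Glucocorticoids also shift the circadian clock, a loop in which ARNTL and CLOCK switch on their own repressors and output factors. Between its muscle cells the heart holds fibroblasts, mural cells, vessels, nerves and fat, and these make the collagens, elastic microfibrils and integrin contacts that carry mechanical load. In RNA from a whole heart, fewer cells of a type and less RNA in each such cell cannot be told apart.

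Far more features were higher than lower after 1 day of exposure, and the higher ones were dim. The limma test called 2242 of 22763 features changed, 9.85%, with 0.05 as the limit of the Benjamini-Hochberg adjusted p. In T1R1, 1762 were higher (7.74%) and 480 lower (2.11%). The direction followed brightness. With features split by mean level into 4 bins of equal size, 837 were higher and 57 lower in the dimmest bin, and 20 higher and 154 lower in the brightest. The median difference went from 0.34 in the dimmest bin to 0.10, -0.05 and -0.10 in the next 3. Named genes gave 1221 calls (7.38%), 797 higher (4.82%) and 424 lower (2.56%). Long noncoding RNA regions gave 697 (22.9%), 683 higher (22.5%) and 14 lower (0.461%), and unnamed transcripts 324 (10.2%), 282 higher (8.88%) and 42 lower (1.32%). Of the features well above background on all 8 arrays, 6.82% were higher and 2.27% lower: 4.02% and 2.67% of named genes, 24.3% and 0.43% of noncoding regions, and 7.51% and 1.59% of unnamed transcripts. At an unadjusted p under 0.05 there were 5895 features (25.9%). With all arrays and without each in turn, 1091 features passed (4.79%), 970 higher (4.26%) and 121 lower (0.532%).

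The base composition of the 60-base probe moved with the direction as well. Within the dimmest bin, 5.67% of features with a probe of at most 36.67% GC were higher in T1R1, and 20.2% of those with a probe of at least 46.67% GC. Within the next bin these shares were 3.07% and 21.7%, and within the brightest at most 0.488%. The median difference over all features with at least 46.67% GC was 0.14 in T1R1, 0.22 in T2R1 and -0.07 in T3R1, and over those with at most 36.67% it was -0.09 in each. The gradient was thus present in the 2 exposed groups on the other slide and not in T3R1, which shares the slide of the controls. Its part in the excess of higher calls was not tested. After the median shift of each array was removed within 16 bins of brightness and GC, a setting chosen after seeing the data, 956 features were higher and 632 lower.

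**Figure D2:**
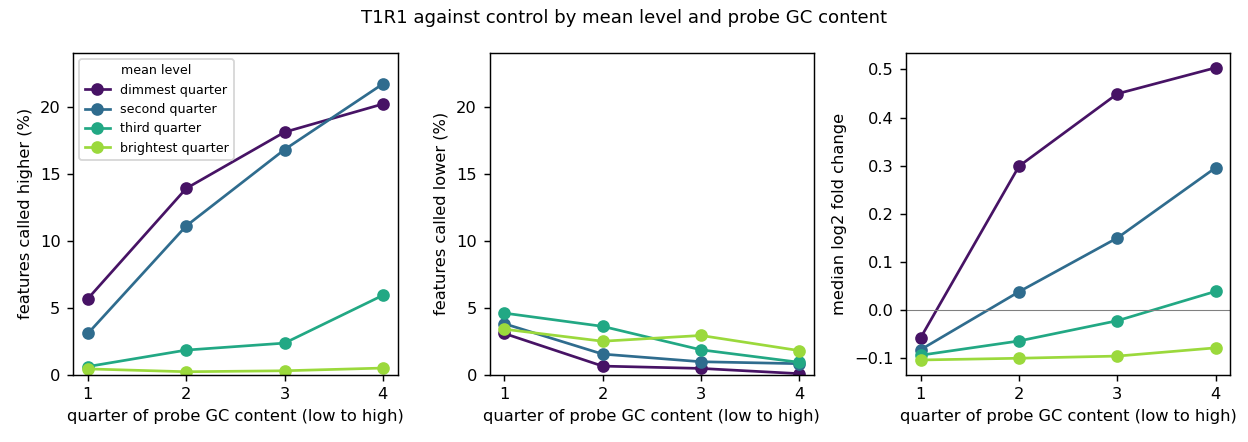
Features of the T1R1 comparison in 4 bins of mean level (line colour) and 4 bins of probe GC content (horizontal axis, low to high). The panels show the percent called higher, the percent called lower and the median log2 difference; the share called higher climbs from 5.67% to 20.2% in the dimmest bin and is at most 0.488% in the brightest.

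Both directions depended on scaling and on single arrays. The share of calls that were higher was 78.6% as scaled here, 52.3% after quantile scaling, 51.0% with normexp background correction, 46.0% in the values the authors deposited and 5.79% when arrays were centred on their median, which lowered the median of all features to -0.44. Without control replicate 1 there were 1863 higher and 2196 lower features, without T1R1 replicate 4 there were 1130 and 211, and without control replicate 4 there were 1237 and 221. The lower features numbered 273 when control replicate 2 was left out and 286 when T1R1 replicate 2 was. With control replicate 1 and T1R1 replicate 3 both left out, a setting chosen after seeing the data, there were 1940 higher and 1926 lower. Under 6 scalings (the 75th percentile, quantile, normexp, the authors' values, cyclic loess and the bins of brightness and GC), 148 named genes were called higher every time and 117 lower every time. The arrays of the 2 groups did not overlap for 3159 features (13.9%).

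The lower genes held several that build or grip the extracellular matrix, together with smooth muscle actin. Acta2 encodes the actin of smooth muscle and activated fibroblasts, and its probe lies on chromosome 19, 34316060 to 34316119 (probe positions are those of the array design, build mm9). Its levels were 5.69, 5.16, 5.45 and 5.65 on the control arrays and 4.83, 4.50, 4.66 and 4.28 on the T1R1 arrays. Every T1R1 array lay below every control array, and the fall was 1.89-fold (-0.92 ± 0.14, adjusted p = 0.00199). Itga8, the alpha 8 integrin chain of mural cells and fibroblasts (chromosome 2, 12028462 to 12028521), stood at 0.71, -0.04, -0.38 and 0.20 in controls and -0.89, -1.60, -0.90 and -0.99 in T1R1, again without overlap. It was 2.32-fold lower (-1.22 ± 0.22, adjusted p = 0.00396). Itga11, a collagen-binding integrin chain of fibroblasts, was at 1.33, 0.25, 0.64 and 0.66 on the control arrays and -0.07, 0.02, -0.03 and 0.08 on the T1R1 arrays. The 4 exposed hearts lay within a narrow band below the controls (-0.72 ± 0.17, adjusted p = 0.0178). Mfap4, a microfibril-associated protein of elastic fibres (chromosome 11, 61302147 to 61302206), read 3.42, 2.76, 2.92 and 3.17 in controls and 2.25, 1.46, 2.04 and 2.27 in T1R1. It fell 2.09-fold without overlap (-1.06 ± 0.22, adjusted p = 0.00911). Acta2 was the one gene called of 19 measured smooth muscle and pericyte genes, 5 of which lay above 0. The median of that list was -0.10, or -0.23 with 4 lower without control replicate 1. Over all 22763 features, 480 were lower with all arrays and 2196 in that fit.

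The courses of these 4 genes with longer exposure were not compared by a test. Acta2 differed from control by -0.48 in T2R1 (adjusted p = 0.0324) and 0.32 in T3R1 (adjusted p = 0.215), Mfap4 by 0.04 and 1.16 (adjusted p = 0.926 and 0.0341), and Itga11 by -0.37 and 0.58 (adjusted p = 0.159 and 0.091). T3R1 minus T1R1 was 1.24 for Acta2 (adjusted p = 0.000122), 2.22 for Mfap4 (adjusted p = 5.79e-05) and 1.30 for Itga11 (adjusted p = 0.000237). T1R1 and T3R1 lay on different slides. Itga8 was also lower in T2R1, at -0.88 (adjusted p = 0.013), and stood at -0.21 in T3R1 (adjusted p = 0.599). Its T3R1 minus T1R1 was 1.01 (adjusted p = 0.00498). Without control replicate 1, whose collagen genes stood high, Acta2 was at -0.85, Itga8 at -1.02, Mfap4 at -0.94 and Itga11 at -0.52. All 4 stayed past the threshold without any single array, and all 4 were called lower under each of the 6 scalings.

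**Figure D3:**
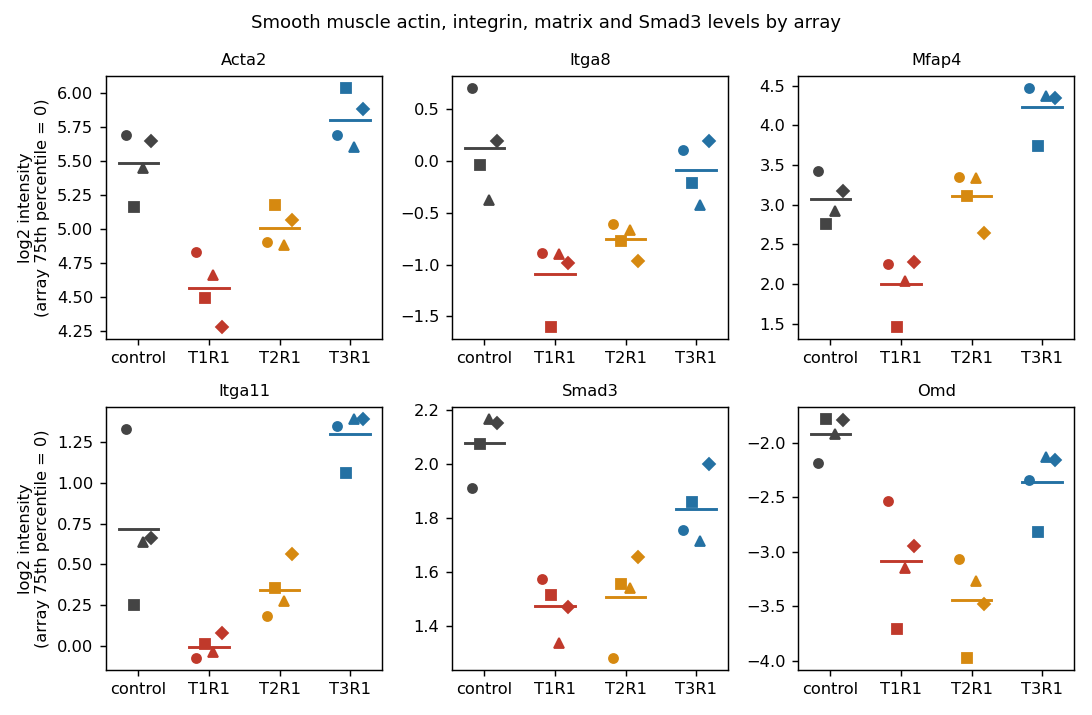
Log2 intensity (0 at the 75th percentile of the array) of 6 genes on each array of the 4 groups; marker shape gives the replicate number and the line is the mean of 4 arrays. In all 6 panels the T1R1 arrays lie below the control arrays. For Acta2, Itga8, Mfap4, Itga11 and Smad3 the T3R1 arrays lie above the T1R1 arrays, and for Omd they overlap.

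Of 27 measured genes for matrix proteoglycans and elastic fibre, 5 were lower and 0 higher, with a list median of -0.18 against -0.01 over all features and 2.11% of features called lower. Without control replicate 1 the median was -0.04, with 7 lower, where 2196 of all 22763 features were. With all arrays, the 5 lower were Mfap4, Omd, Comp, Ogn and Ltbp1. Omd, the small leucine-rich proteoglycan osteomodulin, was dim, at -2.18, -1.78, -1.92 and -1.79 in controls and -2.53, -3.71, -3.15 and -2.95 in T1R1, where 3 of 4 arrays were well above background. It was lower by 1.17 ± 0.24 (adjusted p = 0.0083) and lower still against control in T2R1, at -1.53 (adjusted p = 0.000869). Comp, which bridges collagen fibrils, fell by 0.68 ± 0.18 (adjusted p = 0.0275), Ogn, another leucine-rich proteoglycan, by 0.56 ± 0.16 (adjusted p = 0.0431) and Ltbp1, which stores latent TGF-beta in the matrix, by 0.53 ± 0.14 (adjusted p = 0.0268). The last 3 calls were fragile. Comp did not pass without control replicate 2, 3 or 4 or T1R1 replicate 2, Ogn without control replicate 2, 3 or 4 or T1R1 replicate 2, 3 or 4, and Ltbp1 without control replicate 2 or 3 or T1R1 replicate 2, 3 or 4. Over all the left-out arrays, whether the call held or not, their differences ranged from -0.81 to -0.54, -0.70 to -0.38 and -0.62 to -0.44. Of the 6 scalings 5, 3 and 2 called them. Ogn also lost its call with the replicate number as a block (adjusted p = 0.0553). A second Ltbp1 probe stood at -0.50 ± 0.55 (adjusted p = 0.616).

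Collagens were largely without a call. Of 24 measured collagens 1 was called, the non-fibrillar chain Col8a2, higher by 0.78 ± 0.18 (adjusted p = 0.0145). Its probe was among the dim ones, at -3.57, -3.04, -3.05 and -3.44 on the control arrays and -2.12, -2.38, -3.04 and -2.45 on the T1R1 arrays, with 3 of 4 T1R1 arrays well above background and the groups overlapping. The sign of Col8a2 turned to -0.31 with normexp background correction and to -0.62 in the authors' values, and its other probe stood at -0.80 ± 0.36 (adjusted p = 0.176). The collagen list had a median of -0.08, and 0.22 without control replicate 1. Its median was 0.49 in T2R1 and 1.09 in T3R1, where 8 of 24 were called higher (0.505% of all features). The 26 matricellular and activated fibroblast genes behaved alike: 2 were lower in T1R1, Acta2 and Itga8 (2.11% of all features were lower), and the median was -0.09, or 0.26 without control replicate 1. Of 25 matrix proteases and inhibitors 2 were higher, close to the 7.74% of all features, Mmp12, a macrophage elastase, by 0.89 ± 0.20 (adjusted p = 0.015) and the membrane protease Mmp24 by 0.97 ± 0.25 (adjusted p = 0.024). Mmp12 was well above background on 2 control and 3 T1R1 arrays and Mmp24 on 4 and 3. Mmp12 was called under 1 of 6 scalings and lost without T1R1 replicate 4. Mmp24 was called under 2 and lost without control replicate 3 or 4 or T1R1 replicate 1 or 2. Their leave-one-out ranges were 0.76 to 1.00 and 0.82 to 1.11.

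Among the signalling lists that act on matrix cells, Smad3 and Scube3 fell. Smad3, the receptor-activated transcription factor of TGF-beta signalling (chromosome 9, 63494574 to 63494633), was at 1.91, 2.08, 2.17 and 2.15 on the control arrays and 1.57, 1.51, 1.33 and 1.47 on the T1R1 arrays. No T1R1 array reached the lowest control, and the fall was 0.60 ± 0.10 (adjusted p = 0.00246). Smad3 was at -0.57 in T2R1 (adjusted p = 0.00165) and -0.24 in T3R1 (adjusted p = 0.172). Scube3, a secreted protein that binds TGF-beta receptors (chromosome 17, 28311682 to 28311741), was well above background on 4 control arrays and on no T1R1 array. Its levels were -2.70, -3.79, -3.50 and -2.69 on the control arrays and -4.65, -6.37, -5.12 and -5.45 on the T1R1 arrays. Against the detection floor of the T1R1 arrays, Scube3 was at least 2.1-fold lower. That floor was taken on each array as the lowest signal among probes well above background, or the probe's own where higher. The adjusted p of Scube3, 0.00174 (limma), is that of the fitted difference, which rests on T1R1 values not well above background. Of the 27 measured TGF-beta and BMP genes these 2 were the ones called, both lower (2.11% of all features were lower), and the list median was -0.05, or -0.01 without control replicate 1.

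In the Wnt pathway list, 1 of 28 measured genes was higher and 3 were lower, where 7.74% and 2.11% of all features were. The list median was -0.13, or -0.02 without control replicate 1 and -0.03 without T1R1 replicate 3. Wnt9b, a ligand, rose by 1.21 ± 0.31 (adjusted p = 0.0244), from -2.27, -2.66, -2.61 and -2.32 in controls to -1.65, -1.80, -1.57 and -0.01. T1R1 replicate 4, the array with the highest liver genes, stood above the other 3. Frat1, which frees beta-catenin from its destruction complex, fell by 1.17 ± 0.29 (adjusted p = 0.0202), from -1.16, -0.82, -0.28 and 0.03 to -1.48, -1.95, -2.13 and -1.34. The secreted inhibitors Wif1 and Sfrp2 fell by 0.73 ± 0.20 (adjusted p = 0.0323) and 0.82 ± 0.24 (adjusted p = 0.0419). Sfrp2 stood at 1.16 in T3R1 (adjusted p = 0.041). Each of these 4 calls was lost without 1 or more single arrays: Wnt9b without control replicate 2 or 3, Frat1 without control replicate 3 or 4 or T1R1 replicate 2 or 3, Wif1 without control replicate 2, 3 or 4 or T1R1 replicate 2 or 4, and Sfrp2 without control replicate 4 or T1R1 replicate 2, 3 or 4. Over all the left-out arrays, whether the call held or not, the differences ranged from 0.79 to 1.39, -1.37 to -0.97, -0.91 to -0.63 and -0.95 to -0.51. Wnt9b, Wif1 and Sfrp2 were called under 3, 5 and 3 of the 6 scalings.

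A set of histone H4 genes was lower by nearly the same amount. Histone H4 is made from many gene copies that encode the same protein, most of them switched on when a cell copies its DNA. The group was singled out after its values were seen. Of 11 H4 genes on the array 10 were measured, and 6 were lower and 0 higher, with a median difference of -0.58 over the 10. Of all named genes 2.56% were lower. H4c4 was at 3.83, 3.83, 3.65 and 3.90 on the control arrays and 3.34, 3.04, 3.07 and 2.92 on the T1R1 arrays. It fell by 0.71 ± 0.10 (adjusted p = 0.0012), and its T1R1 arrays lay clear of the controls. H4c12, the brightest, was at 4.90, 5.06, 4.83 and 5.01 on the control arrays and 4.59, 4.35, 4.41 and 4.07 on the T1R1 arrays. It fell by 0.60 ± 0.11 (adjusted p = 0.00394), and its second probe gave -0.61 ± 0.11 (adjusted p = 0.00415).

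The other 4 fell by 0.61 ± 0.13 (H4c3, 3 T1R1 arrays after an outlier spot was dropped, adjusted p = 0.00918), 0.60 ± 0.10 (H4f16, adjusted p = 0.00205), 0.56 ± 0.10 (H4c11, adjusted p = 0.00424) and 0.53 ± 0.10 (H4c14, adjusted p = 0.00403). None of the 6, which were picked by their calls, overlapped between groups, and of all features 13.9% did not. Each of the 6 was called lower under all 6 scalings and without any single array. In T2R1 the 6 lay between -0.48 and -0.24 of control, and in T3R1 between -0.24 and 0.13. Their probes hold 55.0% to 63.3% GC. Of all features with at least 46.67% GC, 714 were called higher and 47 lower. The 4 without a call did not share one course. H4c17 stood at -0.83 ± 0.36 (adjusted p = 0.165), Hist1h4i at -0.25 ± 0.13 (adjusted p = 0.24), H4c9 at 0.0073 ± 0.14 (adjusted p = 0.98) and H4c8 at 0.71 ± 0.38 (adjusted p = 0.268). Copies of H4 share much sequence, so binding of the RNA of one copy to the probe of another cannot be told apart from its own signal. The longest run that 2 of these 60-base probes share is 20 bases. Of all 42 measured clustered histone genes 7 were lower and 0 higher, with a median of -0.36. The mitosis and replication list, which covers the cell cycle more broadly, had 0 of 31 genes called, and its median turned from -0.48 to 0.26 without control replicate 1. It was -0.31 without T1R1 replicate 3.

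**Figure D4:**
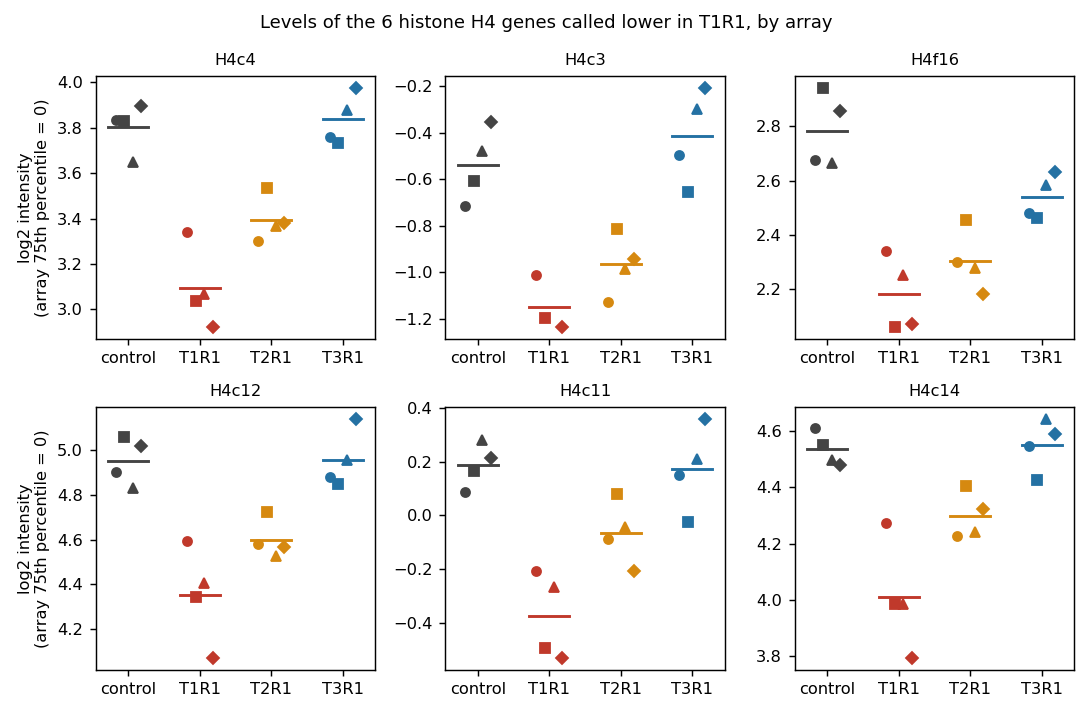
Log2 intensity (0 at the 75th percentile of the array) of the 6 histone H4 genes called lower in T1R1, on each array of the 4 groups; marker shape gives the replicate number and the line is the mean. In each panel all T1R1 arrays lie below all control arrays, while the T3R1 means lie within -0.24 to 0.13 of control.

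Clock genes moved in both directions. The repressor gene Ciart has 3 copies of the E-box CACGTG in the 250 bases before its start, the site that ARNTL and CLOCK bind. It is shown because Ciart had the largest rise among clock genes, with the E-boxes in capitals (RefSeq, GRCm38.p6, minus strand, chr3:95882229-95882478):
Ciart upstream region: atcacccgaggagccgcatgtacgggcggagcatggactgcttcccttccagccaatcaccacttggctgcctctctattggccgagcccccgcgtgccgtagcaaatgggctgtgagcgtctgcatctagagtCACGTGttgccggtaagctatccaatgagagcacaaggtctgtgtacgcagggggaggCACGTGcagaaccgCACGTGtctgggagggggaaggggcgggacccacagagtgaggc
The E-boxes begin 116, 58 and 44 bases before the start. The same 6 letters, which read alike on both strands, occur at least once in 6.02% of 32851 mouse promoter windows of this length and 3 times or more in 0.0609%. The same window of Dbp, Nr1d1 and Arntl held 0 of them. A match describes the letters and not the binding of a factor, and its lack says no more than that the letters are not in this window.

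Ciart was at -3.83, -3.91, -4.51 and -4.13 on the control arrays and -1.64, -2.58, -1.79 and -1.52 on the T1R1 arrays. No control array reached the lowest T1R1 array, and the rise was 4.64-fold (2.22 ± 0.39, adjusted p = 0.00354). Its probe was well above background on 3 of 4 controls. Nr1d1, a nuclear receptor that represses Arntl, was at -0.64, 0.18, 0.17 and -0.06 on the control arrays and 0.99, 1.21, 1.07 and 1.44 on the T1R1 arrays, and rose by 1.27 ± 0.30 (adjusted p = 0.0166). Its call was lost without T1R1 replicate 4 (leave-one-out range 1.09 to 1.36). Dbp, a bright output transcription factor, was at 4.93, 5.42, 5.12 and 4.69 on the control arrays and 6.04, 5.83, 6.06 and 5.65 on the T1R1 arrays and rose by 0.85 ± 0.16 (adjusted p = 0.00544). Its second probe rose by 0.96 ± 0.16 (adjusted p = 0.00284). Arntl, the activator, was at -0.96, -1.50, -0.40 and -0.15 on the control arrays and -1.81, -2.03, -2.37 and -1.48 on the T1R1 arrays. T1R1 replicate 4 just exceeded the lowest control, and Arntl fell by 1.17 ± 0.27 (adjusted p = 0.0139).

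Bhlhe41, another repressor, rose by 0.52 ± 0.14 (adjusted p = 0.0285), but was called under 1 of 6 scalings and lost without control replicate 3 or 4 or T1R1 replicate 2, 3 or 4 (range 0.44 to 0.64). Its second probe stood at 0.13 ± 0.18 (adjusted p = 0.702). The 9 other clock genes read by rule (Cry1, Cry2, Hlf, Nfil3, Nr1d2, Per1, Per2, Per3 and Tef) were not called and lay between -0.49 and 0.49. Cry1, at -0.49 ± 0.15 (adjusted p = 0.0583), was called lower under 9 of 22 other settings. Of the 5 other scalings these included quantile (-0.87), cyclic loess (-0.73), the authors' values (-0.47) and the bins (-0.45), but not normexp (-0.18). It also passed without control replicate 1 (-0.59) or T1R1 replicate 1 (-0.63). In T3R1 it was lower, at -0.79 (adjusted p = 0.0346). In T2R1, on the slide of T1R1, Ciart, Nr1d1, Dbp and Arntl stood at 2.71, 1.16, 1.16 and -1.65. In T3R1 they stood at 1.10, 0.67, 0.08 and -0.33, none of them called. Bouts took place at varying hours, per the labels, and the part of the hour in these values was not tested.

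**Figure D5:**
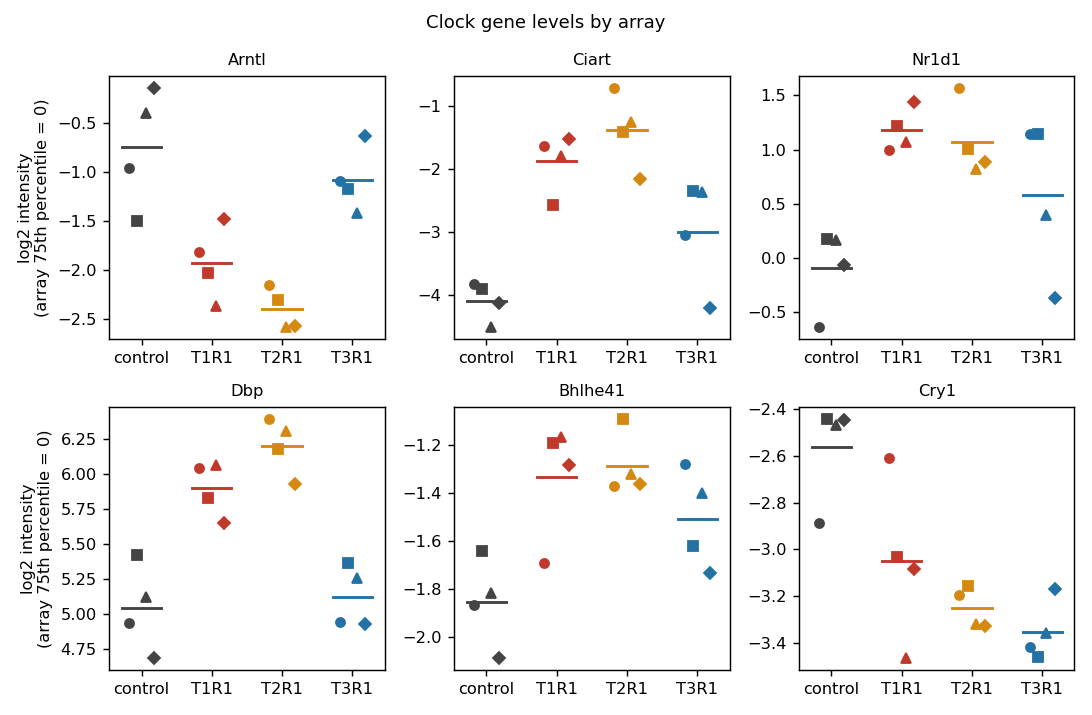
Log2 intensity (0 at the 75th percentile of the array) of 6 clock genes on each array of the 4 groups; marker shape gives the replicate number and the line is the mean. The T1R1 and T2R1 means lie on the same side of the control mean in each panel, and the mean of Ciart rises by 2.22 in T1R1.

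Neuronal filament genes and the glial gene S100b were lower. Nefl, the light neurofilament chain, was at -2.32, -2.83, -3.17 and -2.31 on the control arrays and -3.13, -5.74, -4.87 and -6.11 on the T1R1 arrays, and Prph, the filament of peripheral neurons, at -1.87, -2.15, -2.66 and -1.30 on the control arrays and -2.46, -4.44, -4.94 and -5.58 on the T1R1 arrays. T1R1 replicate 1 overlapped the controls for both, and the other 3 exposed hearts lay far below them. Nefl was well above background on 1 of 4 T1R1 arrays and Prph on 2. The fitted falls, which rest in part on T1R1 values not well above background, were 2.31 ± 0.48 (adjusted p = 0.00861) and 2.36 ± 0.53 (adjusted p = 0.0125), and neither gene stood apart in T3R1 (-0.11 and 0.05). S100b, of Schwann cells, fell by 1.09 ± 0.27 (adjusted p = 0.0196) and was lost without control replicate 4 or T1R1 replicate 2 (range -1.29 to -0.91). The neuropeptide Gal rose by 0.46 ± 0.10 (adjusted p = 0.011) and the synaptic gene Snap25 by 0.49 ± 0.14 (adjusted p = 0.0419). The Snap25 call was lost without control replicate 1 or 4 or T1R1 replicate 2, 3 or 4 (range 0.35 to 0.61). In all 24 measured nerve and Schwann cell genes, of 29 listed, 2 were higher and 4 lower, where 7.74% and 2.11% of all features were. Not all of the 4 lower are named here. Gal and Snap25 were called under 5 of the 6 scalings. The list median on single arrays ran from -1.15 to -0.69 in controls and -1.08 to -0.67 in T1R1.

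Fat cell genes were lower on 3 of the 4 T1R1 arrays. The median of 21 measured adipocyte genes, of 22 listed, was 2.48, 0.92, 1.28 and 3.51 on the control arrays and 1.89, -0.60, -1.60 and -0.77 on the T1R1 arrays. The exposed heart in replicate 1 lay within the control range. In the list 4 genes were lower and 0 higher (2.11% of all features were lower), with a median difference of -1.63. It was -0.98 without control replicate 1, where 3 were lower, and -2.69 without T1R1 replicate 1, where 10 were. Those fits called 2196 and 670 of all 22763 features lower. Ucp1, which uncouples respiration in brown fat, was at 5.51, 2.34, 1.71 and 3.68 on the control arrays and 2.63, -1.84, -4.94 and -6.11 on the T1R1 arrays. Its levels spanned a wide range within each group (-5.88 ± 1.68, adjusted p = 0.0406), and 2 of 4 T1R1 arrays were well above background. Adrb3, the beta 3 adrenergic receptor of fat cells, was at -3.62 ± 0.93 (adjusted p = 0.0244), Adipoq, the hormone adiponectin, at -2.89 ± 0.87 (adjusted p = 0.0494) and Cidea, a lipid droplet protein, at -0.82 ± 0.24 (adjusted p = 0.0439). Adrb3 was well above background on 2 of 4 T1R1 arrays, and a second Adrb3 probe stood at -0.15 ± 0.20 (adjusted p = 0.677). None of the 4 calls held without T1R1 replicate 2, 3 or 4 or without control replicate 4. Ucp1 was further lost without control replicate 1 or 2, Adipoq without control replicate 1 or 3 and Cidea without control replicate 1. Over the left-out arrays they ranged from -7.61 to -4.70, -4.60 to -2.9967, -3.80 to -2.35 and -0.97 to -0.66. Of the 6 scalings 5 called Adrb3, 3 called Ucp1 and 1 each called Adipoq and Cidea. How much fat was taken with each heart is not in the labels.

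Among genes of the stress hormones, 2 of the corticotropin-releasing hormone system rose. Crhbp, the secreted protein that binds the hormone (chromosome 13, 96201903 to 96201962), was at -3.81, -3.09, -3.36 and -3.20 on the control arrays and -1.73, -1.97, -0.81 and -1.55 on the T1R1 arrays. All 4 exposed hearts lay above all controls, and the rise was 3.61-fold (1.85 ± 0.32, adjusted p = 0.0029). Crhr1, its receptor, was at -3.02, -2.83, -2.64 and -2.76 on the control arrays and -2.18, -2.01, -2.22 and -2.07 on the T1R1 arrays. It rose by 0.69 ± 0.12 without overlap (adjusted p = 0.00274), but only 2 of the 6 scalings called it. In T2R1 Crhbp and Crhr1 stood at 1.57 and 0.76 and in T3R1 at -0.50 and -0.19. Of 16 listed genes of this system 7 were measured, and these 2 were called, while the list median was -0.08. Over all features 7.74% were higher, and in the dimmest of the 4 bins of level 837 of 5691 were. Of 27 measured glucocorticoid targets 1 was higher, where 7.74% of all features were. It was the amino acid enzyme Tat, which rose by 0.99 ± 0.24 (adjusted p = 0.0173, lost without control replicate 4, range 0.71 to 1.18). The list median was -0.20. Of 22 adrenergic signalling genes Adrb3 alone was called, lower (2.11% of all features were lower), and of 22 renin-angiotensin and vasoactive peptide genes 0 were.

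The rapid stress programmes showed few calls. None of 24 immediate early genes passed, although 21 lay above 0, with a median of 0.31 and medians over the 6 scalings of 0.18 to 0.31. Without T1R1 replicate 3, marked by the scanner software, it was 0.19. With arrays centred on their median it was -0.12. Heat shock chaperones had 1 of 24 higher and 1 lower, where 7.74% and 2.11% of all features were. Hspb7, the small chaperone of heart and skeletal muscle, was at 5.81, 5.76, 5.83 and 5.80 on the control arrays and 5.79, 6.74, 6.63 and 6.36 on the T1R1 arrays. T1R1 replicate 1 stayed at the control level while the other 3 lay above all controls (0.58 ± 0.17, adjusted p = 0.0438). Hspe1, the mitochondrial chaperonin partner, fell by 0.31 ± 0.09 (adjusted p = 0.0484). Both calls were lost without control replicate 2, 3 or 4 or T1R1 replicate 2 or 4, Hspb7 also without T1R1 replicate 3 and Hspe1 also without T1R1 replicate 1, with ranges of 0.46 to 0.78 and -0.38 to -0.26. Hspe1 was called under 3 of the 6 scalings and lost its call with the replicate number as a block (adjusted p = 0.0602), and its 2 other probes stood at -0.27 ± 0.08 and -0.21 ± 0.09 (adjusted p = 0.0604 and 0.187). Endoplasmic reticulum stress genes had 0 of 25 called and antioxidant and metal response genes 0 of 26. Cyp1b1, a target of the aryl hydrocarbon receptor, fell by 0.67 ± 0.17 (adjusted p = 0.0246) and was lost without control replicate 4 or T1R1 replicate 2 (range -0.81 to -0.49). It was called under 5 of the 6 scalings.

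In the energy lists the answer turned on control replicate 1. With all arrays, 1 of 37 complex I subunits was lower, Ndufab1, the mitochondrial acyl carrier protein. Ndufab1 was at 1.41, 1.37, 1.21 and 1.07 on the control arrays and 0.88, 0.91, 0.88 and 0.76 on the T1R1 arrays, without overlap (-0.40 ± 0.09, adjusted p = 0.011). None of 40 genes of complexes II to V, 37 of fatty acid use or 78 mitochondrial ribosomal proteins rose, and 0, 0 and 4 of them were lower. Over all features 2.11% were lower. Without control replicate 1, on which the complex I median was 7.20 against 7.96 to 8.05 on the other controls, 28 of 37 complex I, 18 of 40 complex II to V and 43 of 78 mitochondrial ribosomal genes were lower. So were 6 of 37 genes of fatty acid use, and 2196 of all 22763 features. The complex I median then went from -0.15 to -0.36. With all arrays it was -0.04 after quantile scaling and -0.58 with median centring, where 33 genes were lower, as were 10127 of all 22763 features. In T3R1, on the slide of the controls, the complex I median was -0.36.

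Slc16a1, which carries lactate and ketone bodies across the membrane, was the one gene of 37 in glucose use that was called (7.74% of all features were higher). Its levels were -1.80, -1.43, -1.59 and -1.62 on the control arrays and -0.99, -0.93, -1.14 and -0.85 on the T1R1 arrays, and it rose by 0.64 ± 0.11 without overlap (adjusted p = 0.00351). It stood at 0.87 in T2R1 (adjusted p = 0.00034) and -0.10 in T3R1. In cholesterol synthesis 2 of 30 genes were lower, where 2.11% of all features were. Hmgcs1, an early enzyme of the pathway, fell by 0.41 ± 0.10 (adjusted p = 0.0173) and Fdps, which makes farnesyl diphosphate, by 0.53 ± 0.14 (adjusted p = 0.0312). Without control replicate 1, 8 of the 37 glucose use genes were lower, where 2196 of all 22763 features were. The median of the cholesterol list was -0.38, and -0.19 without control replicate 1. Hmgcs1 was called under 1 of the 6 scalings and Fdps under 2, and Fdps was lost without control replicate 4 or T1R1 replicate 2, 3 or 4 (range -0.62 to -0.36). In the atrophy and FoxO list Bnip3, a mitophagy receptor, rose by 0.65 ± 0.16 (adjusted p = 0.0187), lost without T1R1 replicate 4 (range 0.54 to 0.80), and the muscle ubiquitin ligase Fbxo32 fell by 0.69 ± 0.20 (adjusted p = 0.043). The Fbxo32 call did not hold without control replicate 2, 3 or 4 or T1R1 replicate 1, 2 or 3 (range -0.88 to -0.57), and 4 of the 6 scalings made it. Without control replicate 1, 7 of the 20 genes in that list were lower, where 2196 of all 22763 features were. A second Bnip3 probe rose by 0.55 ± 0.15 (adjusted p = 0.0363), and another stood at 0.17 ± 0.18 (adjusted p = 0.585). Ribosomal proteins had 0 of 40 genes called and the proteasome 0 of 30.

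Contractile and channel genes were largely without a call. None of 24 adult sarcomere genes passed with all arrays, and 6 were lower without control replicate 1, as were 4 of 30 calcium handling genes, 8 of 32 potassium channels and 5 of 18 atrial markers. In that fit 2196 of all 22763 features were lower. With all arrays, of 30 calcium handling genes 2 were lower, where 2.11% of all features were. Itpr1, an intracellular calcium release channel, fell by 0.33 ± 0.08 (adjusted p = 0.0218), and Stac, an adaptor of voltage-gated calcium channels, by 1.27 ± 0.32 (adjusted p = 0.0244). Stac was well above background on 2 of 4 T1R1 arrays. Itpr1 was lost without control replicate 2 or 4 or T1R1 replicate 2 or 4, and Stac without those and T1R1 replicate 3 (ranges -0.37 to -0.29 and -1.61 to -1.07). Itpr1 was called under 2 of the 6 scalings and Stac under 5. Of 32 potassium channels 1 was higher, where 7.74% of all features were. This inward rectifier, Kcnj4, rose by 0.70 ± 0.15 (adjusted p = 0.011), from -2.36, -2.89, -2.35 and -2.85 to -2.08, -1.87, -1.84 and -1.86, and 4 of the 6 scalings called it. In T2R1 it stood at 0.18 (adjusted p = 0.464). Kcnk9, an acid-sensitive leak channel outside that list, rose by 1.42 ± 0.13 (adjusted p = 0.000336), from -2.68, -2.24, -2.26 and -2.30 to -1.01, -0.74, -1.09 and -0.96. Of 18 sodium, pacemaker and gap junction genes and 18 atrial markers none was called. The skeletal isoform Mybpc1, of slow myosin-binding protein C, was higher by 0.71 ± 0.17 (adjusted p = 0.0189), lost without T1R1 replicate 4 (range 0.61 to 0.79), and called under 3 of the 6 scalings.

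Of blood cell and plasma genes, few were called. Over all features 7.74% were higher. In the 4 bins of level, dimmest first, 837, 768, 137 and 20 were, with 5690 or 5691 features in each. Of 14 measured neutrophil markers, of 22 listed, 2 were higher, the surface antigen Ly6g by 0.56 ± 0.11 (adjusted p = 0.00777) and the cysteine protease inhibitor Stfa3 by 1.15 ± 0.25 (adjusted p = 0.0115). Ly6g was at -0.41, -0.66, -0.73 and -0.49 on the control arrays and -0.26, 0.10, 0.14 and -0.03 on the T1R1 arrays, without overlap. The list median was 0.73. In T2R1 8 of the 14 were called (14.8% of all features were higher there), and in T3R1 0. The filter keeps a gene that any 1 group reads well above background, so it can favour genes that are high in T2R1. Cd247, the T cell receptor zeta chain, was higher by 0.91 ± 0.16 (adjusted p = 0.00354) and Selp, the platelet and endothelial adhesion molecule, by 0.94 ± 0.27 (adjusted p = 0.0388). These were 1 of 19 T and NK cell markers and, for Selp, 1 of 26 endothelial genes, of which 7 were lower without control replicate 1. In that fit 2196 of all 22763 features were lower. Selp was lost without control replicate 2, 3 or 4 or T1R1 replicate 1, 2 or 4 (range 0.74 to 1.18). None of 23 macrophage, 19 antigen presentation, 13 B cell, 34 chemokine and cytokine or 33 interferon-induced genes was called. Of 22 coagulation genes 4 were higher, all of them made mainly by the liver. The list had a median control level of -0.74, and 7.74% of all features were higher. F7, F9, Klkb1 and Fga rose by 0.69 ± 0.13, 0.59 ± 0.14, 1.16 ± 0.26 and 0.85 ± 0.22 (adjusted p = 0.00572, 0.0144, 0.0133 and 0.0268). Fga was lost without control replicate 4 or T1R1 replicate 3 or 4 (range 0.67 to 1.00). Klkb1 was well above background on 3 of 4 controls. F9 was called under 5 of the 6 scalings, F7 under 2 and Klkb1 and Fga under 1, and a second F7 probe stood at 0.96 ± 0.62 (adjusted p = 0.359). Ly6g and Stfa3 were called under 5, Cd247 under 4 and Selp under 2. Of the 15 measured liver genes, of 23 listed, Fga and Tat were higher, and the list median ran from -2.99 to -0.74 in controls and -2.82 to 1.4997 in T1R1. Of 23 erythroid and platelet genes 1 was called. It was Car1, an erythroid carbonic anhydrase, which rose by 0.63 ± 0.15 (adjusted p = 0.0198) and was lost without control replicate 4 (range 0.50 to 0.71), with calls under 2 of the 6 scalings.

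Receptors of the nose and keratins of skin and hair held many of the higher calls. Odorant receptors are G protein-coupled receptors of sensory neurons. Of 1102 on the array 203 were measured, and 69 of these were higher and 0 lower, against 4.82% of named genes called higher. Most members therefore did not pass the filter, and some passed through the groups in which they were bright. Of the 84 that were well above background on all 8 arrays 41 were higher (48.8%), where 4.02% of all such genes were. The 203 were dim, with a median control level of -3.49. In the dimmest of the 4 bins of level 390 of 3405 named genes were higher. Of 264 vomeronasal receptors 18 were well above background on all 8 arrays, and 9 of these were higher; 34 keratins were, and 10 of them were higher (29.4%). None was lower in either family. Over the members that passed the filter, 203, 47 and 49, the median differences of the 3 families were 0.73, 0.69 and 0.50 in T1R1, 0.95, 0.94 and 0.61 in T2R1 and -0.17, -0.13 and -0.02 in T3R1. After adjustment in bins of brightness and GC the odorant receptor median was 0.46, with 46 higher and 1 lower, and in the authors' values it was 0.18, with 29 higher and 3 lower. Of the 47 and 49, vomeronasal receptors had 1 higher with normexp, with quantile scaling and in the authors' values, and keratins had 5, 4 and 4.

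Among single genes with the largest rises that held without each array in turn were dim probes of many kinds. Olfr661 was at -2.29, -1.82, -2.22 and -2.21 on the control arrays and -0.77, -0.92, -0.91 and -0.66 on the T1R1 arrays, a rise of 1.32 ± 0.19 (adjusted p = 0.00137). Elf4, an ETS transcription factor of blood cells, was at -2.38, -2.06, -1.99 and -2.09 on the control arrays and -0.75, -1.10, -0.80 and -0.54 on the T1R1 arrays, a rise of 1.33 ± 0.12 (adjusted p = 0.000336). Both groups of arrays were tight and far apart for these genes. The others were Bhlha9, Nkain2, Apom, Rnf148, Olfr700, Gm16894, Gm11190 and Olfr538, at 1.86, 1.43, 1.42, 1.41, 1.41, 1.37, 1.35 and 1.31, with adjusted p between 0.000813 and 0.0156. Bhlha9, a limb-bud transcription factor, also stood at 1.79 in T3R1 (adjusted p = 0.0518), while the other 9 named here lay between -0.57 and 0.63 there. Apom, an apolipoprotein made by liver and kidney, was called under 1 of the 6 scalings, and Nkain2 and Olfr700 under 5.

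The largest falls that met the same rule, beyond those already given, were of genes with assorted roles. Lonrf3, a RING finger protein, was at -0.84, -0.30, -0.42 and -0.02 on the control arrays and -1.07, -2.14, -1.47 and -1.20 on the T1R1 arrays, and its second probe gave -1.01 ± 0.21 (adjusted p = 0.00906). It fell by 1.07 ± 0.23 (adjusted p = 0.0102). Fnip2, a partner of folliculin, was at -0.29, 0.70, 0.82 and 0.80 on the control arrays and -0.81, -0.79, -0.42 and -0.19 on the T1R1 arrays. Control replicate 1 overlapped the T1R1 arrays, and the fall was 1.06 ± 0.22 (adjusted p = 0.00932), or -1.33 without that array. Mnd1, a meiotic recombination factor, fell by 0.94 ± 0.19 (adjusted p = 0.00709; second probe -0.82 ± 0.17, adjusted p = 0.00831), the mitochondrial carrier Slc25a35 by 0.83 ± 0.17 (adjusted p = 0.00776) and the membrane protein Tmem164 by 0.81 ± 0.18 (adjusted p = 0.0128). The unnamed reading frames 4921531C22Rik and 1190005I06Rik fell by 0.79 ± 0.18 and 0.74 ± 0.14 (adjusted p = 0.0155 and 0.0052). All 7 were called under each of the 6 scalings, and in T3R1 they lay between -0.66 and -0.07.

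Long noncoding RNA regions were the class with the greatest share of calls, but not among bright features. In the 4 bins of level, dimmest first, 23%, 30.3%, 13.4% and 1.61% of them were called. In the brightest bin 3.27% of named genes were. The array design names 4610 such regions by mm9 interval and strand, at 3543 places in the genome, and 3038 were measured. The probes of the 4 largest rises and of the 2 falls that were well above background on all 8 arrays and held without each array in turn are shown, since the interval is the only identity these transcripts have here:
chr3:52206874-52207385, probe chr3:52207229-52207288 (plus strand): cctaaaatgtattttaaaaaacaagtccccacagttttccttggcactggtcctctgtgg
chr15:99765243-99783300, probe chr15:99783084-99783143 (plus strand): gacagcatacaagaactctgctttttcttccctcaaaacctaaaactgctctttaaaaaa
chrX:18810088-18814982, probe chrX:18814850-18814909 (minus strand): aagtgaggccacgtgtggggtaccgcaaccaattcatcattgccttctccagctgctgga
chr17:15368546-15377747, probe chr17:15368901-15368960 (minus strand): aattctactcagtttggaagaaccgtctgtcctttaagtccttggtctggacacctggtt
chr15:8463685-8494960, probe chr15:8479031-8479090 (minus strand): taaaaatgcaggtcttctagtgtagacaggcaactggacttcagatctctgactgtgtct
chr15:32167516-32174427, probe chr15:32170344-32170403 (minus strand): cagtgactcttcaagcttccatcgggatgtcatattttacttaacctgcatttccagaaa
The first region was at -3.64, -3.36, -3.81 and -3.91 on the control arrays and -2.11, -2.11, -1.92 and -1.97 on the T1R1 arrays, a rise of 1.65 ± 0.17 (adjusted p = 0.000538). The 2 groups lay more than 1 unit apart, with little spread within either. The others higher rose by 1.52 ± 0.21, 1.43 ± 0.20 and 1.40 ± 0.21 in the order shown (adjusted p = 0.00121, 0.00115 and 0.00159). In T2R1 these 4 stood between 1.22 and 1.64 and in T3R1 between -0.29 and -0.06. The chromosome X region was called under 5 of the 6 scalings and the other 5 regions under all.

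The 2 regions that fell were brighter. The one at 8463685 on chromosome 15 was at 0.16, 0.22, 0.27 and 0.06 on the control arrays and -0.43, -0.62, -0.30 and -0.36 on the T1R1 arrays and fell by 0.61 ± 0.09 (adjusted p = 0.00148). Its 2 other probes fell by 0.50 ± 0.09 and 0.49 ± 0.10 (adjusted p = 0.00471 and 0.00975). The one at 32167516 fell by 0.52 ± 0.11 (adjusted p = 0.00823), and of its 4 other probes 1 was called, also lower. Both strands were measured at 601 places. At 28 of these both strands were higher, at 230 one strand was, at 343 neither, and at 1 the strands were called in opposite directions. Probes of this class had a median GC content of 45.0%, against 41.7% for named genes. With normexp background correction 226 regions were higher and 13 lower, and after adjustment in bins of brightness and GC 340 and 49.

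Detection itself changed for few named genes. The adjusted p given for each is that of the fitted difference (limma), which rests in part on values not well above background. It does not test the fold bound. One gene, Olfr1106, was well above background on all T1R1 arrays and on no control array, at least 3-fold higher against the floor of the control arrays (adjusted p = 0.0316). T1R1 replicate 3 carried its highest level, -1.57, and the call was lost without that array or control replicate 1 or 4 (fitted range 1.16 to 1.95). It was called under 1 of the 6 scalings. The reverse held for 9 genes, of which 3 were called lower: Scube3, Gnal and Gstcd. Gnal, a G protein alpha subunit of the olfactory pathway, was at least 1.28-fold lower (adjusted p = 0.0403), lost without control replicate 3 or 4 or T1R1 replicate 2, 3 or 4 (fitted range -1.50 to -1.23). Gstcd was at -4.41, -4.05, -4.40 and -4.01 on the control arrays and -5.51, -5.42, -5.11 and -5.80 on the T1R1 arrays, at least 1.01-fold lower (adjusted p = 0.000813). Gnal and Gstcd were called under 5 of the 6 scalings. Gstcd was back at -0.24 of control in T2R1 (adjusted p = 0.343), where 2 of 4 arrays were well above background.

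T1R1 and T2R1 shared a slide, and no feature was called between them. Of 22763 features 0 differed between T2R1 and T1R1 at an adjusted p under 0.05 (limma), and 1782 (7.83%) did at an unadjusted p under 0.05. Mfap4 and Gstcd had unadjusted p of 0.000205 and 1.51e-05 there, with T2R1 higher by 1.10 ± 0.22 and 1.01 ± 0.16 (adjusted p = 0.495 and 0.344). Gstcd was well above background on no T1R1 array and on 2 of 4 T2R1 arrays. Against the same controls T2R1 had 4187 changed features (18.4%), 3371 features higher (14.8%) and 816 lower (3.58%), and T3R1, on the slide of the controls, 158 (0.694%), 115 higher (0.505%) and 43 lower (0.189%). Across the slides, T3R1 differed from T1R1 in 5212 features (22.9%), 1742 higher in T3R1 (7.65%) and 3470 lower (15.2%).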

How the data were processed

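Hearts of 16 mice were read on 1-colour Agilent arrays with Cy3-labelled RNA, 1 heart each. Per the file headers, Feature Extraction 10.7.3.1 subtracted background and spatial trend to give the processed intensity and did not normalize between arrays. The mean spot intensity and the local background intensity are as scanned, per the file headers, and flags of 0 or 1 are given as the scanner software set them. The authors' deposited value table holds log2 values with a median of 6.10, a minimum of 4.54 and a maximum of 18.8 on every array. Within each array its ranks are those of the mean spot intensity, which centring of genes would have changed. How the table was made is otherwise unknown here. Its direction follows the scanner values.

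Outlier spots were dropped, the log2 processed intensity was set to 0 at the 75th percentile of each array, and replicate spots were averaged. The filter on dim probes left 31390 of 55681 (4 of 4 arrays of a group well above background), and the brightest probe stood for each name. Names came from RefSeq accessions for 26756 probes, from symbols for 3824 and from the files otherwise. limma 3.58.1 in R 4.3.3 fitted the 4 groups together (12 residual and 2.26 prior degrees of freedom, 102 missing values), with two-sided p values adjusted by Benjamini-Hochberg over all 22763 features at 0.05. Array number limits the precision. The fit was checked on simulated data.

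Named are the 12 largest changes each way among genes that passed with and without each array on probes well above background on all 8. Up to 5 genes each way detected in 1 group only were added, as were up to 4 noncoding regions each way and 13 clock genes. In each list the 4 members with the smallest p were taken, and those called are given. Ogn and Snap25 were called but are not among the 4 of their lists. Others are marked as chosen after their values were seen. Of named features 13 had other kept probes, 19 in all, of which 1 had the opposite sign and was not called. The members, lists and rules were chosen with earlier results of these data known. Some genes that meet the naming rule are not reported here. Replicate numbers come from the labels, which do not say that they pair hearts; same-numbered arrays deviated together with correlations of -0.11, -0.14, 0.15 and 0.01, so they were not treated as pairs. Alternatives covered background, scaling, filters, the fit, the threshold and each array left out.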

Additional observations from a re-analysis of the deposited data

Results flagged for a closer look

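On several lists and genes 1 array of a group stood far from the other 3, in 27 of 296 groups of 4 values (a test of the highest or lowest of 4 values that marks about 1 in 20 groups by chance). Control replicate 1 was the array that stood apart for the medians of adult sarcomere (6.57, next 7.22), complex I (7.20, next 7.96), fatty acid use (3.82, next 4.43) and proteasome genes (4.79, next 5.05), all low. It stood high for collagens (1.96, next 0.90), matricellular and activated fibroblast genes (1.86, next 0.88), matrix proteases (0.52, next 0.14), chemokines (0.58, next -0.35), liver (-0.74, next -2.72) and lung genes (3.73, next -2.23). Control replicate 2 was high for sodium, pacemaker and gap junction genes, at 0.88. In T1R1, replicate 1 was high for thymus (1.16) and T and NK cell markers (-0.93), and replicate 4 for complement and acute phase (1.90) and coagulation genes (0.56).

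Of single genes, control replicate 1 stood apart for Fnip2 (-0.29), Cry1 (-2.89), Snap25 (3.82), Stfa3 (-2.76), Selp (-2.38) and Kcnk9 (-2.68), control replicate 3 for Rnf148 (-3.99) and control replicate 2 for Olfr661 (-1.82). T1R1 replicate 2 stood apart for Itga8 (-1.60), replicate 1 for Kcnj4 (-2.08) and replicate 4 for Wnt9b (-0.01) and H4c8 (1.28).

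For 16 named features the T1R1 arrays lay on one side of the control mean and the T3R1 arrays on the other. For each, T3R1 minus T1R1 was past an adjusted p of 0.05 (limma), as it was for 22.9% of all features. Most named features were chosen by their T1R1 differences. The groups lay on different slides, so exposure and slide cannot be told apart in these values. T3R1 was above T1R1 by 1.24 for Acta2, 2.22 for Mfap4, 1.30 for Itga11, 1.98 for Sfrp2, 0.68 for Ndufab1, 0.66 for Fdps, 0.91 for Matn2 and 0.83 for the region chr15:32167516-32174427. The difference was -1.06 for Col8a2, -1.33 for Tat, -0.81 for Bnip3, -0.91 for F9, -1.75 for Kcnk9, -1.93 for Gm16894, -1.76 for Olfr538 and -1.18 for Myot.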

How the results depend on the processing

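With all arrays and the 75th percentile, 2242 features changed, 1762 higher and 480 lower, among them 697 long noncoding RNA regions, 92 named features and 56 genes of the gene lists. These counts moved by over 1.5 times under the following settings. Normexp gave 1107 changed, 565 higher and 239 noncoding regions, and quantile scaling 1434, 750 and 343. Median centring gave 10749 changed, 622 higher, 10127 lower and 555 list genes. The authors' values gave 856 higher, 1006 lower and 358 noncoding regions. No filter on dim probes gave 215 lower, and every probe on its own 1118 noncoding regions. The 8 arrays alone gave 975 changed, 923 higher, 52 lower, 362 noncoding regions, 44 named features and 21 list genes, with fewer samples for the spread. Array weights gave 4350 changed, 2126 lower and 200 list genes. An adjusted p under 0.01 left 799 changed, 730 higher, 69 lower, 308 noncoding regions, 42 named features and 15 list genes. Leaving out single arrays gave 1341 to 4059 changed, 1130 to 1863 higher, 211 to 2196 lower, 466 to 737 noncoding regions, 66 to 89 named features and 32 to 222 list genes; the highest count of changed, lower and list genes came without control replicate 1. Of settings chosen after seeing the data, leaving out control replicate 1 and T1R1 replicate 3 gave 3866 changed, 1926 lower and 192 list genes, and the bins of brightness and GC 956 higher and 389 noncoding regions. The cause of these moves was not tested beyond the construction of the fits named.

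With the replicate number as a block, a pairing the labels do not state, 2266 features changed, 1804 higher and 462 lower, with 704 noncoding regions. Of 95 named features, 2 lost their call under the block, Ogn (-0.56) and Hspe1 (-0.31). The sign turned for Col8a2 with normexp (-0.31) and in the authors' values (-0.62), and for Gnal without the filter (0.22), and the cause was not tested. Of the 95, between 65 and 77 kept direction and call under the 5 other scalings. Dim probes near background limit what can be seen.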

Other observations

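Few bright genes rose after 1 day, and a few named genes outside the lists moved under all 6 scalings and without each array in turn. They were chosen after their values were seen. Myot, a protein of the muscle Z-disc, was at 3.16, 2.98, 3.18 and 2.83 on the control arrays and 3.25, 3.74, 4.40 and 4.31 on the T1R1 arrays, a rise of 0.89 ± 0.20 (adjusted p = 0.0125). Matn2, a filament-forming matrix protein, fell by 0.62 ± 0.13 (adjusted p = 0.009), beside the matrix genes of the report, and stood at 0.29 in T3R1 (adjusted p = 0.2). Csad, which makes hypotaurine on the way to taurine, also fell, by 0.67 ± 0.15 (adjusted p = 0.0131), and stood at 0.00 of control in T3R1.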
